A study of Mus musculus with 18 samples.

Results

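The 10 genes described here were the transcription factor and period genes of the circadian clock, Arntl, Npas2, Per1, Per2, Per3, Nr1d1 and Nr1d2, with the 3 PAR bZIP factors Dbp, Tef and Hlf. They were taken by gene name from tables of 55385 genes, and each of the 10 was found once. All 10 were among the 17575 genes that passed the filter on low counts. The genes were measured by polyA RNA sequencing of whole kidney from 18 mice, 6 of each of 3 genotypes, with 3 males and 3 females per genotype. Dp16 mice were 17.1 to 18.0 weeks old and carry a duplication of the part of mouse chromosome 16 that corresponds to much of human chromosome 21, in every cell, as a model of trisomy 21. Dp16 2xIFNRs mice were 17.7 to 18.0 weeks old and carry the same duplication, but their interferon receptor gene cluster is at the usual copy number. The wild-type mice were C57BL/6J, 17.1 to 18.0 weeks old. No treatment was given to any group, and the labels name no strain background for Dp16 or Dp16 2xIFNRs animals. The hour at which each kidney was collected is not given in the sources used here.

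The clock of mammalian cells is a transcriptional loop with a period of about a day. ARNTL, also called BMAL1, pairs with CLOCK or with its close relative NPAS2, and the pair binds E-box sequences and turns on the Per, Cry, Nr1d1, Nr1d2 and Dbp genes. PER and CRY proteins then block the pair, and the nuclear receptors NR1D1 and NR1D2, known as REV-ERB alpha and beta, shut off Arntl and Npas2 through ROR response elements. Messages of Arntl and Npas2 therefore peak at about the opposite time of day to those of Nr1d1, Dbp and the Per genes, in kidney as in liver. DBP, TEF and HLF are activators that bind D-box sequences and pass the rhythm on to genes of metabolism and detoxification. Mice that lack all 3 PAR bZIP factors show cardiac and blood pressure changes. Of the 10 genes, none lies on chromosome 16.

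Sequence just before the start could be read for 9 of the 10 genes in RefSeq's promoter table for build GRCm38.p6, which held 12 start sites for them. The 250 bases before each start were searched on both strands for the E-box CACGTG, its variant CACGTT, the D-boxes TTATGTAA and TTACGTAA, the core of the ROR response element AGGTCA and the cAMP response element TGACGTCA. None of these motifs overlapped another in a window of the 10 genes. Among 32851 promoters of the table the E-box was found in 6.02%, its variant in 3.85%, TTATGTAA in 0.819%, TTACGTAA in 0.113%, AGGTCA in 14% and TGACGTCA in 1.55%. The windows of Per3, Per1, Tef, Nr1d1 and Hlf are shown because together they hold every kind of element found. Each is written 5′ to 3′ on the strand of its gene and ends at the base before the start, and capitals mark the motifs.
Per3, chr4:151044666-151044915, minus strand: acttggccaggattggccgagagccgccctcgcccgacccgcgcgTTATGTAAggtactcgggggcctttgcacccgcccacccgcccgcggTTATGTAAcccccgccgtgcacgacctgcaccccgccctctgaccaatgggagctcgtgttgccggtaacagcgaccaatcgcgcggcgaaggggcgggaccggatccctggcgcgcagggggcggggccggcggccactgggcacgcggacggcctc
Per1, chr11:69098699-69098948, plus strand: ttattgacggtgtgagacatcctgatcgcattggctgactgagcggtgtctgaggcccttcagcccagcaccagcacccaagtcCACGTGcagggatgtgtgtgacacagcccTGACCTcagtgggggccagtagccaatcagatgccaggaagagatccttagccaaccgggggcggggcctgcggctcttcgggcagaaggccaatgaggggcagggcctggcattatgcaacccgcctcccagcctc
Tef, chr15:81802423-81802672, plus strand: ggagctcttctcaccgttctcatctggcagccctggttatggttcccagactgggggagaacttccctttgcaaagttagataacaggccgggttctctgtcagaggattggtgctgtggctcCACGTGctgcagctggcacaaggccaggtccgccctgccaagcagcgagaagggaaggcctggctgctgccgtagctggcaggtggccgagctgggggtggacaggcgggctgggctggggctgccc
Nr1d1, chr11:98775378-98775627, minus strand: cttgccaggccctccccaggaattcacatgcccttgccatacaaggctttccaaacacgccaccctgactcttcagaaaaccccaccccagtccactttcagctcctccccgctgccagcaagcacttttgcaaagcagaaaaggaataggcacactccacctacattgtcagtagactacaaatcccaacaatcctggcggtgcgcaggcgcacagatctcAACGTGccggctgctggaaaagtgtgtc
Hlf, chr11:90390918-90391167, minus strand: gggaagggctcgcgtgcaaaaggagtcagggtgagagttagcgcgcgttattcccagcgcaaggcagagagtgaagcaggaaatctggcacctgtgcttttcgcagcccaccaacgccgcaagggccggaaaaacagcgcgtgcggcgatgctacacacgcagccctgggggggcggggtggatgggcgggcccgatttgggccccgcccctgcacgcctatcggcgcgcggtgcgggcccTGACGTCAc
Per3 carried TTATGTAA at 2 places, which begin at positions -205 and -158 counted back from the start. Per1 carried an E-box at -166 and, on the opposite strand, AGGTCA at -137. Only this core was searched, without the bases that flank it in a ROR response element. Tef carried an E-box at -127 in the window shown and at -138 in its second window. Nr1d1 carried the E-box variant on the opposite strand at -28, so the capitals read AACGTG. Hlf carried the cAMP response element at -9, just before the start. Nr1d2 carried AGGTCA at -77. The windows of Arntl, Npas2 and Dbp held none of the 6 motifs. Inexact matches and bases outside the windows, such as those after the start, were not searched. Elements of the loop may lie there. A motif is a match of letters in these windows, and binding was not measured.

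Library totals ranged from 42157790 to 57814587 gene counts. Levels are given as CPM, counts scaled to library size with TMM factors, for comparisons of one gene between animals, and in RPKM, which divides by gene length, for comparisons between genes. Markers of nephron segments were high in every library, with a summed level of 10139 RPKM or more for the 4 proximal tubule genes and 1420 RPKM or more for the 2 genes of the loop of Henle. The 5 macrophage markers summed to 102.6 to 136.6 RPKM in Dp16, 94.3 to 138.5 RPKM in Dp16 2xIFNRs and 52.8 to 82.0 RPKM in wild-type kidneys, and 4 of the 5, Adgre1, Lyz2, Mpeg1 and C1qa, were called higher in each genotype against wild-type. Markers of adrenal tissue summed to 0.21 to 2.94 RPKM in Dp16, 0.25 to 0.46 RPKM in Dp16 2xIFNRs and 0.33 to 23.3 RPKM in wild-type kidneys, 4 of the 6 adrenal genes were too low to be tested, and 1 of the 6 was at 0 in every Dp16 kidney, 2 in every Dp16 2xIFNRs kidney and 0 in every wild-type kidney. Markers of fat summed to 62.1 to 99.1 RPKM in Dp16, 35.3 to 76.4 RPKM in Dp16 2xIFNRs and 59.0 to 108.1 RPKM in wild-type kidneys. By edgeR, Calb1 of the distal tubule was called higher in each genotype against wild-type, the fat gene Adipoq higher in Dp16, and Star, Ucp1 and Cidea lower in Dp16 2xIFNRs. The part that these other cells play in the results below was not tested. In whole tissue, fewer cells of a type and less RNA per cell cannot be told apart.

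Per length, Nr1d1, Dbp and Tef were the most abundant of the 10 messages, with medians over the 18 kidneys of 41.3, 39.8 and 35.9 RPKM. Hlf at 17.5 RPKM, Nr1d2 at 15.3 RPKM and Per1 at 8.88 RPKM followed. Arntl had a median of 2.44 RPKM, Per2 of 1.44 RPKM, Per3 of 1.19 RPKM and Npas2 of 1.09 RPKM. The order is one of medians only. The ranges over animals of Dbp, 5.85 to 145.8 RPKM, and of Nr1d1, 20.9 to 69.4 RPKM, overlapped, and so did those of Arntl, 0.31 to 8.29 RPKM, and Npas2, 0.13 to 6.73 RPKM.

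Arntl, the activator without which the loop stops in mice, differed 24.5-fold between the lowest and the highest kidney. The 6 Dp16 kidneys, in the order of their sample numbers, held 20.0, 8.77, 3.02, 12.4, 1.85 and 22.9 CPM. The 6 Dp16 2xIFNRs kidneys held 15.1, 24.6, 12.6, 1.15, 1.87 and 22.2 CPM. The 6 wild-type kidneys held 1.00, 2.54, 24.2, 6.31, 1.29 and 5.82 CPM. Every genotype thus had kidneys below 3.1 CPM and a kidney above 22 CPM, and the groups overlapped over most of their range. The highest of all was a female Dp16 2xIFNRs kidney and the lowest a male wild-type kidney.

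Npas2, the partner of ARNTL that can stand in for CLOCK, had the widest range of the 10 genes, 49.5-fold. In Dp16 kidneys it held 25.5, 3.81, 1.35, 10.4, 1.64 and 25.7 CPM. In Dp16 2xIFNRs kidneys it held 17.5, 27.3, 13.4, 1.05, 1.49 and 24.3 CPM. In wild-type kidneys it held 0.67, 1.15, 24.2, 5.69, 0.55 and 3.33 CPM. The animals stood in nearly the order they had for Arntl, so that each kidney above 12 CPM for Arntl was above 10 CPM for Npas2. Once genotype and sex were taken out, the SD of log2 CPM of Npas2 ranked 8th among the 17575 genes tested, that of Dbp 17th and that of Arntl 22nd.

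**Figure D1:**
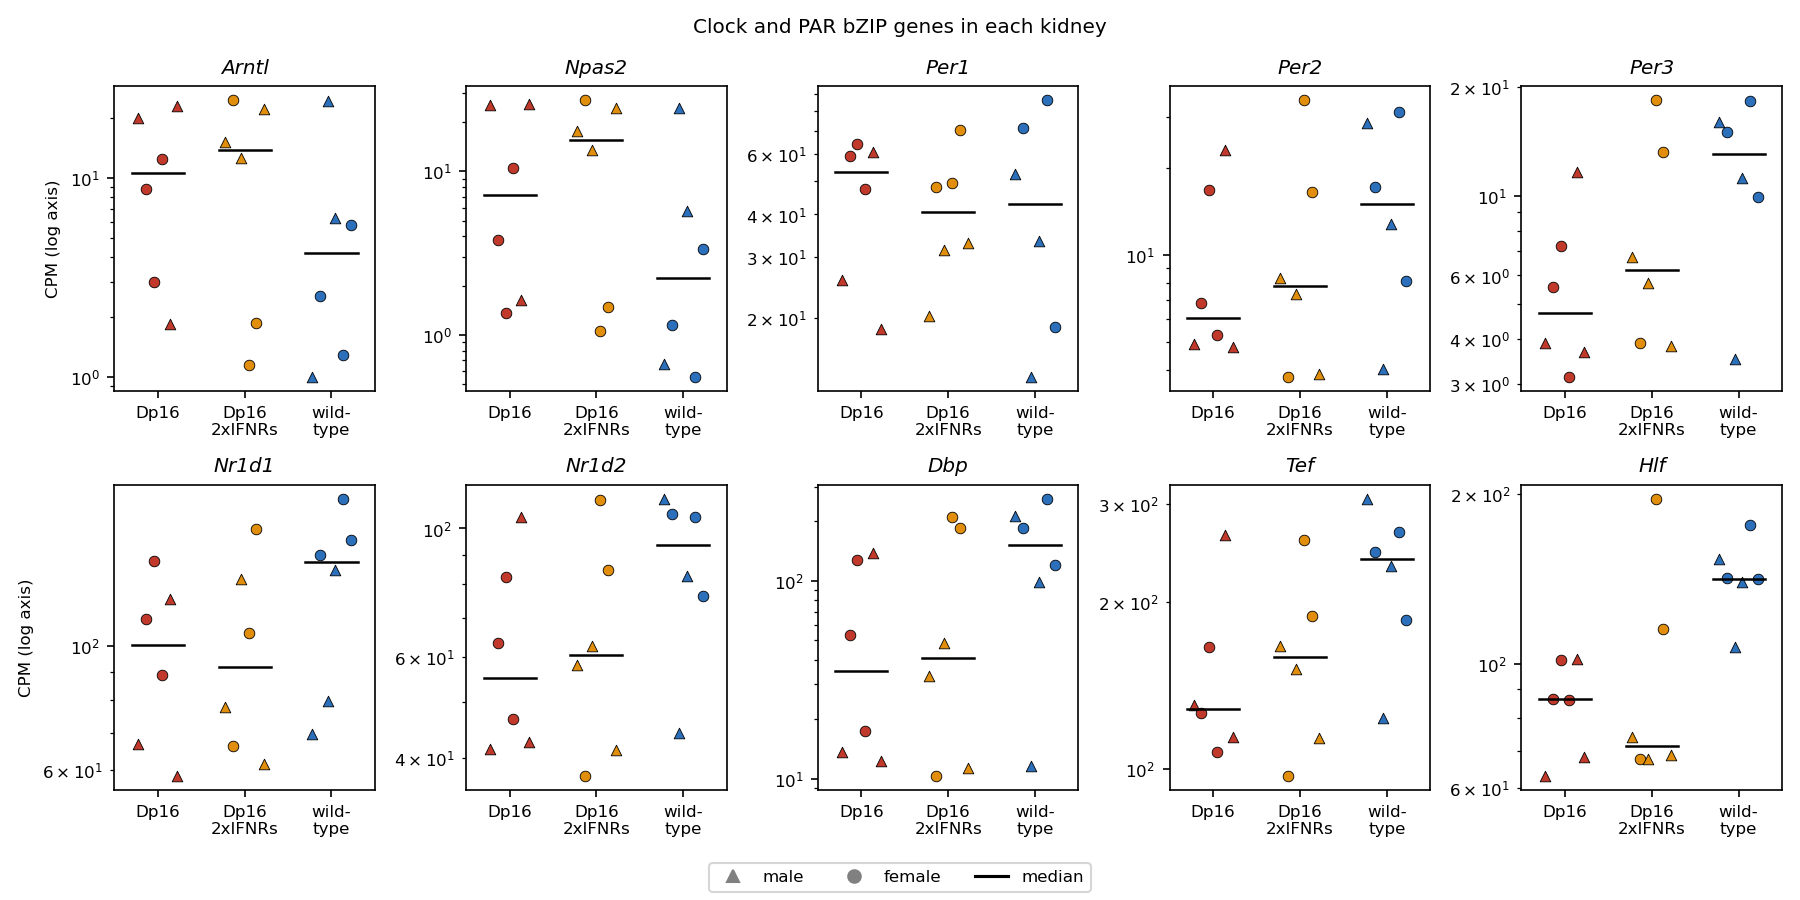
Level of each of the 10 genes in each kidney, in CPM on a log axis, for Dp16, Dp16 2xIFNRs and wild-type mice. Triangles are males, circles females and lines group medians. The 3 groups overlap for Arntl and Npas2, while for Hlf every Dp16 kidney, at most 101.8 CPM, lies under every wild-type kidney, at least 107.1 CPM.

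The Per genes, which code for the repressors of the ARNTL pair, ran the other way. Per2 ranged from 4.83 to 23.2 CPM with a median of 6.09 CPM in Dp16 kidneys, from 3.79 to 34.4 CPM with a median of 7.86 CPM in Dp16 2xIFNRs kidneys and from 4.05 to 31.3 CPM with a median of 15.02 CPM in wild-type kidneys. Per3 ranged from 3.13 to 11.6 CPM with a median of 4.73 CPM in Dp16 kidneys, from 3.81 to 18.5 CPM with a median of 6.23 CPM in Dp16 2xIFNRs kidneys and from 3.52 to 18.3 CPM with a median of 13.1 CPM in wild-type kidneys. Per1 ranged from 18.5 to 64.3 CPM with a median of 53.2 CPM in Dp16 kidneys, from 20.2 to 70.7 CPM with a median of 40.6 CPM in Dp16 2xIFNRs kidneys and from 13.4 to 86.3 CPM with a median of 43.0 CPM in wild-type kidneys. The groups overlapped for all 3 genes. The wild-type kidney with 24.2 CPM of Arntl, sample 3, had the lowest wild-type level of each of the 3 Per genes, 13.4, 4.05 and 3.52 CPM for Per1, Per2 and Per3.

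The REV-ERB genes varied about 3-fold over the 18 kidneys. Nr1d1 ranged from 58.5 to 142.0 CPM with a median of 100.3 CPM in Dp16 kidneys, from 61.6 to 161.9 CPM with a median of 91.6 CPM in Dp16 2xIFNRs kidneys and from 69.7 to 183.3 CPM with a median of 141.1 CPM in wild-type kidneys. Nr1d2 ranged from 41.4 to 104.8 CPM with a median of 55.1 CPM in Dp16 kidneys, from 37.2 to 112.2 CPM with a median of 60.3 CPM in Dp16 2xIFNRs kidneys and from 44.2 to 112.5 CPM with a median of 93.6 CPM in wild-type kidneys. The 3 groups overlapped for both genes. Male wild-type sample 1 stood out from the order of the other animals. It had the highest Nr1d2 of all kidneys, 112.5 CPM, and the lowest Nr1d1 of the wild-type kidneys, 69.7 CPM.

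Dbp, the PAR bZIP gene with the steepest daily rhythm in mouse tissues, differed 25.3-fold between kidneys. It held 13.6, 53.1, 127.0, 17.3, 138.8 and 12.3 CPM in Dp16 samples 1 to 6. It held 32.9, 10.3, 48.7, 209.5, 185.5 and 11.3 CPM in Dp16 2xIFNRs samples 1 to 6. It held 214.1, 185.0, 11.6, 98.3, 260.0 and 119.8 CPM in wild-type samples 1 to 6. Each genotype had at least 1 kidney below 14 CPM and 1 above 120 CPM, and the groups overlapped. The kidneys with more than 15 CPM of Arntl held 10.3 to 32.9 CPM of Dbp.

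Hlf and Tef, which bind the same D-boxes as DBP, varied 3.11-fold and 3.16-fold. Hlf held 63.1, 86.6, 101.4, 86.1, 101.8 and 68.3 CPM in Dp16 samples 1 to 6. It held 74.0, 67.7, 67.6, 196.3, 115.2 and 68.8 CPM in Dp16 2xIFNRs samples 1 to 6. It held 153.5, 141.7, 107.1, 139.4, 176.1 and 141.2 CPM in wild-type samples 1 to 6. All 6 Dp16 kidneys lay under all 6 wild-type kidneys. Of the Dp16 2xIFNRs kidneys, 4 lay under every wild-type kidney, 1 lay within the wild-type range and female sample 4 was the highest of all 18. Tef ranged from 107.4 to 264.1 CPM with a median of 128.4 CPM in Dp16 kidneys, from 97.1 to 258.6 CPM with a median of 159.2 CPM in Dp16 2xIFNRs kidneys and from 123.5 to 307.0 CPM with a median of 239.1 CPM in wild-type kidneys, and its groups overlapped.

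Across animals the 10 genes fell into the 2 limbs of the loop, Arntl and Npas2 on one side and the other 8 genes on the other. Levels were taken as log2 CPM, centred within each of the 6 combinations of genotype and sex, and each pair of genes was correlated over the 18 kidneys. All 29 pairs within a limb had a positive Pearson r, from 0.38 to 0.99, and all 16 pairs between limbs had a negative one, from -0.98 to -0.54. Animals were permuted within the 6 combinations in all 46656 ways, two-sided, and p-values were adjusted by Benjamini-Hochberg over the 45 pairs. Of the 45 pairs, 36 passed 0.05 by Pearson's r and 43 by Spearman's rho. The points of such a correlation share their library and its scaling, and the pairs are not independent of each other. The permutations take the animals of a combination as exchangeable and do not allow for the 11 animals of different genotypes whose labels share a final number, described further on.

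Arntl and Npas2 moved together with r = 0.99 and rho = 0.98 (permutation p = 2.14335e-05, the smallest that the permutations can give, adjusted p = 0.000161), and r stayed at 0.99 without the 2 animals farthest from the median of Arntl. Arntl and Per2 moved oppositely with r = -0.98 and rho = -0.98 (permutation adjusted p = 0.000223 and 0.000263), and r was -0.97 without the 2 farthest animals. Arntl and Dbp had r = -0.95 and rho = -0.94 (permutation adjusted p = 0.000161 for both), and r = -0.94 without the 2 farthest animals. Arntl and Hlf had r = -0.86 and rho = -0.93 (permutation adjusted p = 0.00104 and 0.000797), and r = -0.83 without the 2 farthest animals. These relations held within each genotype, where Dbp and Arntl had r = -0.97 in Dp16, -0.96 in Dp16 2xIFNRs and -0.92 in wild-type kidneys, and Hlf and Arntl had r = -0.91 in Dp16, -0.94 in Dp16 2xIFNRs and -0.91 in wild-type kidneys. The values within genotypes rest on 6 animals each, are not centred by sex and are given as a description.

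Nr1d1 was the gene with the loosest tie to Arntl, with r = -0.54 and rho = -0.60 (permutation adjusted p = 0.0982 and 0.0451) and r = -0.65 without the 2 farthest animals. Within genotypes, and without centring by sex, its r with Arntl was -0.89 in Dp16, -0.70 in Dp16 2xIFNRs and -0.17 in wild-type kidneys. These values also carry the difference of Nr1d1 between the sexes (log2 fold of male over female -0.51 ± 0.19). The difference between genotypes was not tested. The pooled value rested on single animals, since r was -0.81 without wild-type sample 1 and -0.62 without wild-type sample 4, and both passed. Per1 had r = -0.72 and rho = -0.73 with Arntl (permutation adjusted p = 0.00482 and 0.00881), and r = -0.75 without the 2 farthest animals. For each doubling of Arntl, Npas2 changed by a log2 value of 1.12 ± 0.05, Dbp by -0.92 ± 0.09, Per2 by -0.68 ± 0.04, Per3 by -0.48 ± 0.04 and Hlf by -0.20 ± 0.03 (estimate ± SE over 18 kidneys). The slope of Hlf was therefore shallow beside that of Dbp, and both genes fell as Arntl rose.

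**Figure D2:**
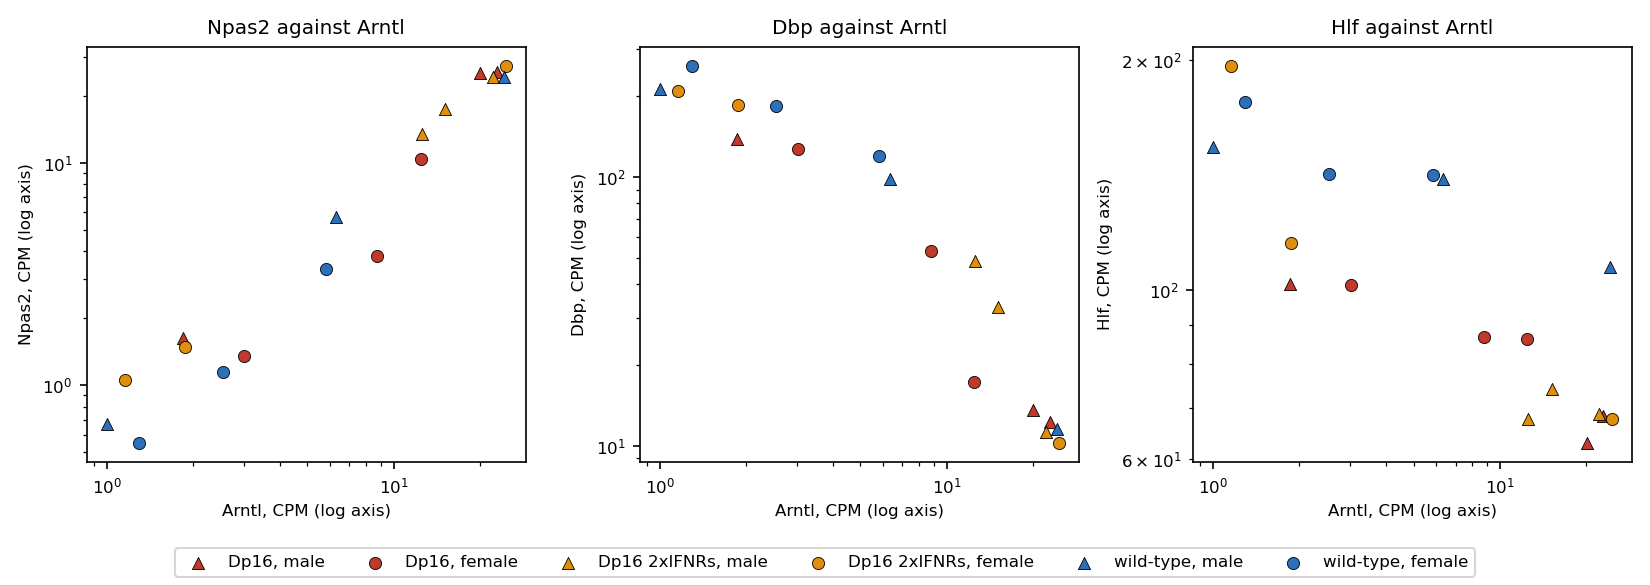
Npas2, Dbp and Hlf against Arntl in each of the 18 kidneys, all in CPM on log axes, coloured by genotype, with triangles for males and circles for females. Npas2 rises and Dbp falls along Arntl with the genotypes intermingled at both ends, while in the Hlf panel the 6 wild-type kidneys lie above the Dp16 kidneys of like Arntl level.

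**Figure D3:**
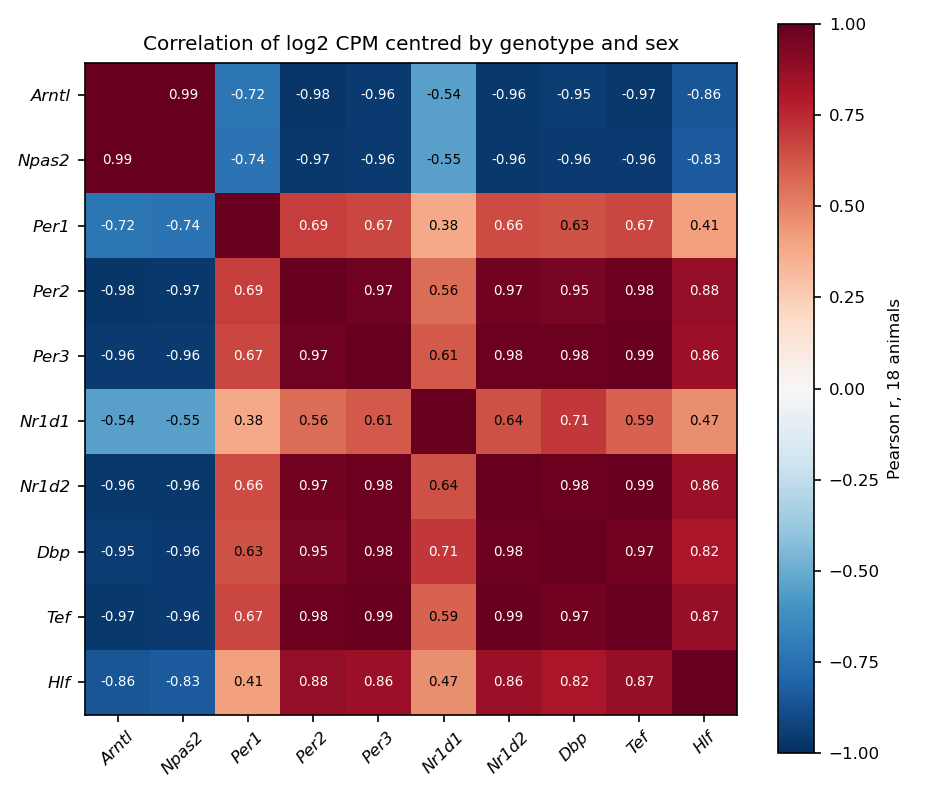
Pearson r of each pair of the 10 genes over 18 kidneys, from log2 CPM centred by genotype and sex, with red for positive and blue for negative values. Arntl and Npas2 form one block with r = 0.99, the other 8 genes form another, and Nr1d1, Per1 and Hlf hold the weakest values.

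The label of each sample ends in a number whose meaning is not stated, and 5 of these numbers occur on more than 1 animal. They join 11 animals into 7 pairs, each pair of the same sex and of different genotypes. The 3 males that share one number, Dp16 sample 6, Dp16 2xIFNRs sample 6 and wild-type sample 3, lay close together for some of the genes, with 22.9, 22.2 and 24.2 CPM of Arntl and 12.3, 11.3 and 11.6 CPM of Dbp. They lay further apart for Per1, with 18.5, 33.0 and 13.4 CPM, and for Nr1d1, with 58.5, 61.6 and 79.8 CPM. In the same 3 kidneys Hlf was 68.3 CPM in the Dp16, 68.8 CPM in the Dp16 2xIFNRs and 107.1 CPM in the wild-type animal, with 1 animal per genotype and so no test. Over the 7 pairs the median ratio of the higher to the lower animal was 1.45 for Arntl and 1.40 for Dbp, beside 3.41 and 3.59 over the 65 other pairs of the same sex. For Hlf the medians were 1.56 and 1.45, and for Per1 1.38 and 1.51. The 2 sets of pairs are not alike. The 7 are all between genotypes and some of them join the same 3 males, while the 65 also include pairs of 1 genotype. In 6 of the 7 pairs the Arntl ratio was 1.03 to 2.62. The exception was Dp16 2xIFNRs sample 1, at 15.1 CPM, with wild-type sample 1, at 1.00 CPM.

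**Figure D4:**
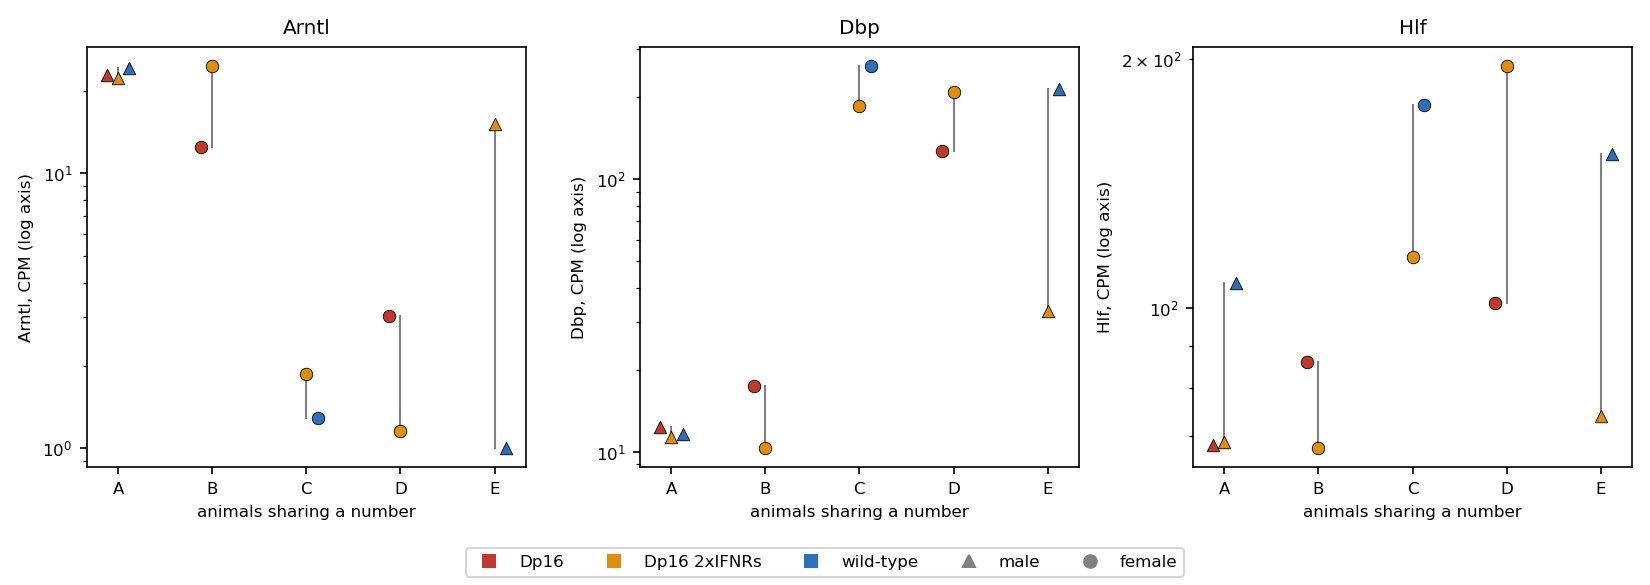
Arntl, Dbp and Hlf in the 11 kidneys whose labels share a final number (A to E), in CPM on a log axis, coloured by genotype, with triangles for males and circles for females. Lines join kidneys of one number. In group A the 3 genotypes coincide for Arntl and Dbp, while Hlf is 68.3 CPM in Dp16, 68.8 CPM in Dp16 2xIFNRs and 107.1 CPM in wild-type.

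With a random term for that number in limma, the correlation within a number was 0.77 for Nr1d1, 0.71 for Dbp, 0.54 for Arntl and 0.29 for Hlf, beside a consensus over all genes of 0.078. The first number in the labels, whose meaning is also not stated, was correlated with each of the 10 genes, and none of the 10 relations passed the permutation test (r from -0.10 to 0.23, lowest adjusted p = 0.993). Between them the labels hold the letter T and a further number of unstated meaning, which ran from 0 to 5 in males and from 5 to 13 in females. Correlated in the same way, a test added after the data were seen, it passed for none of the 10 genes (r from -0.35 to 0.45, rho from -0.38 to 0.47, lowest permutation adjusted p = 0.354 and 0.378, 0 at an unadjusted p under 0.05). Whether any of these numbers stands for a day, a cage or an order of collection is not given in the sources used here.

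In Dp16 kidneys against wild-type, Hlf was lower and was the only one of the 10 genes that passed the test. It averaged 84.6 ± 16.2 CPM in Dp16 and 143.2 ± 22.4 CPM in wild-type kidneys (SD, n = 6 each), a log2 fold of -0.76 ± 0.19 (SE, 95% interval -1.17 to -0.36, edgeR adjusted p = 0.0293). Over all genes tested 4.23% were called in this comparison, 3.17% higher and 1.06% lower, against 0 higher and 1 lower of the 10 here. The CPM of Hlf did not overlap between the groups, which was so for 1.30% of all genes. The call is close to the threshold: it was lost when wild-type sample 1 or 4 or Dp16 sample 1, 2, 3, 4 or 6 was left out (adjusted p 0.0536 to 0.0750, log2 folds from -0.78 to -0.69) and without sex as a term (adjusted p = 0.142 by edgeR). P-values measure the spread between animals that the labels give as separate samples.

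The other 9 genes did not pass, and their intervals were wide. With Hlf, 3 of the 10 genes had an unadjusted p under 0.05, as had 17.1% of all genes. For Dbp the log2 fold was -1.20 ± 0.74 (95% interval -2.75 to 0.35, edgeR adjusted p = 0.455), with 60.4 ± 58.3 CPM in Dp16 and 148.1 ± 89.6 CPM in wild-type kidneys. For Arntl it was 0.88 ± 0.72 (95% interval -0.62 to 2.37), with 11.5 CPM in Dp16 and 6.86 CPM in wild-type kidneys, and for Npas2 1.10 ± 0.82. For Per3 it was -1.02 ± 0.41 (95% interval -1.87 to -0.17, edgeR adjusted p = 0.183), for Tef -0.58 ± 0.25 (edgeR adjusted p = 0.225), for Per2 -0.68 ± 0.55 and for Per1 0.02 ± 0.33. Nr1d1 and Nr1d2 had log2 folds of -0.36 ± 0.23 and -0.45 ± 0.27. Per3 and Tef passed when Dp16 sample 5, the Dp16 kidney with the least Arntl, was left out (log2 folds -1.46 and -0.84, edgeR adjusted p = 0.0351 and 0.0453). The median log2 fold of the 10 genes was -0.52, beside -0.01 over all genes tested.

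In Dp16 2xIFNRs kidneys against wild-type none of the 10 genes passed the edgeR test, against 4.79% of all genes, 3.17% higher and 1.61% lower. Of the 10, 1, Hlf, had an unadjusted p under 0.05, as had 18.2% of all genes. DESeq2 also called 0 of the 10. The 2 groups overlapped for each of the 10 genes, as for all but 1.56% of the genes tested. Hlf averaged 98.3 ± 51.4 CPM in Dp16 2xIFNRs and 143.2 ± 22.4 CPM in wild-type kidneys (SD, n = 6 each), a log2 fold of -0.59 ± 0.19 (95% interval -0.99 to -0.18, edgeR adjusted p = 0.0918). Hlf passed without female sample 4, the kidney with 196.3 CPM (log2 fold -0.85, edgeR adjusted p = 0.00212). With all 18 kidneys it passed with the last label number as a random block (-0.66, limma adjusted p = 0.0361) and with no filter on low counts (-0.60, edgeR adjusted p = 0.0109). Over 30 alternatives Hlf was called in only 5 here (adjusted p from 0.00212 to 0.364 in edgeR, limma and DESeq2). The log2 fold of Arntl was 1.05 ± 0.72, that of Npas2 1.65 ± 0.83, that of Dbp -1.04 ± 0.75, that of Tef -0.48 ± 0.25 and that of Per3 -0.55 ± 0.40. Per2 had -0.55 ± 0.55, Per1 -0.15 ± 0.33, Nr1d1 -0.31 ± 0.23 and Nr1d2 -0.42 ± 0.27. This comparison shares its wild-type kidneys with that of Dp16.

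In Dp16 2xIFNRs kidneys against Dp16 kidneys none of the 10 genes passed the edgeR test, where 0.0171% of all genes were called. None had an unadjusted p under 0.05, which 4.71% of all genes had. DESeq2 called 0 of the 10. The 2 groups overlapped for each of the 10 genes, as for all but 0.0797% of the genes tested. Hlf averaged 98.3 CPM in Dp16 2xIFNRs and 84.6 CPM in Dp16 kidneys, a log2 fold of 0.17 ± 0.19 with a 95% interval of -0.23 to 0.58. Per3 had the interval -0.40 to 1.32 around 0.46, and Per2 -1.05 to 1.31 around 0.13. Those of Arntl, -1.28 to 1.64 around 0.18, of Npas2, -1.12 to 2.20 around 0.54, and of Dbp, -1.43 to 1.74 around 0.16, leave room for differences of more than 2-fold in either direction. Nr1d1 and Nr1d2 had log2 folds of 0.05 ± 0.23 and 0.03 ± 0.27, Tef 0.10 ± 0.25 and Per1 -0.16 ± 0.33.

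Since the level of Arntl differed so widely between animals, for a cause that was not tested, the fit was repeated with its log2 CPM as a term. This choice was made after the data were seen. The term takes out what moves with Arntl, which may include a part that belongs to genotype. In Dp16 against wild-type, the log2 fold of Hlf then came to -0.56 ± 0.11 (edgeR adjusted p = 0.00695) and that of Per3 to -0.56 ± 0.15 (edgeR adjusted p = 0.0381), so that 2 of the 9 genes left were called, where 4.05% of all genes were called in this fit. Tef was -0.28 ± 0.08 with a 95% interval of -0.46 to -0.11 and did not pass (edgeR adjusted p = 0.0654). Dbp was -0.55 ± 0.29 and Npas2 0.17 ± 0.16, less than their values without the term, and Per2 was 0.00 ± 0.14. In Dp16 2xIFNRs against wild-type 1 of the 9 was called, against 4.26% of all genes, Hlf with -0.44 ± 0.11 (edgeR adjusted p = 0.0263). Npas2 at 0.49 ± 0.17 and Tef at -0.19 ± 0.08 did not pass there (edgeR adjusted p = 0.109 and 0.242). In Dp16 2xIFNRs against Dp16 0 of the 9 were called, against 0.0171% of all genes. At an unadjusted p under 0.05 there were 3 of the 9 in each genotype against wild-type. In Dp16 2xIFNRs against Dp16 there was 1, Per3 at 0.43 ± 0.14 (edgeR adjusted p = 0.814). The share of all genes at that threshold in this fit is not given here.

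**Figure D5:**
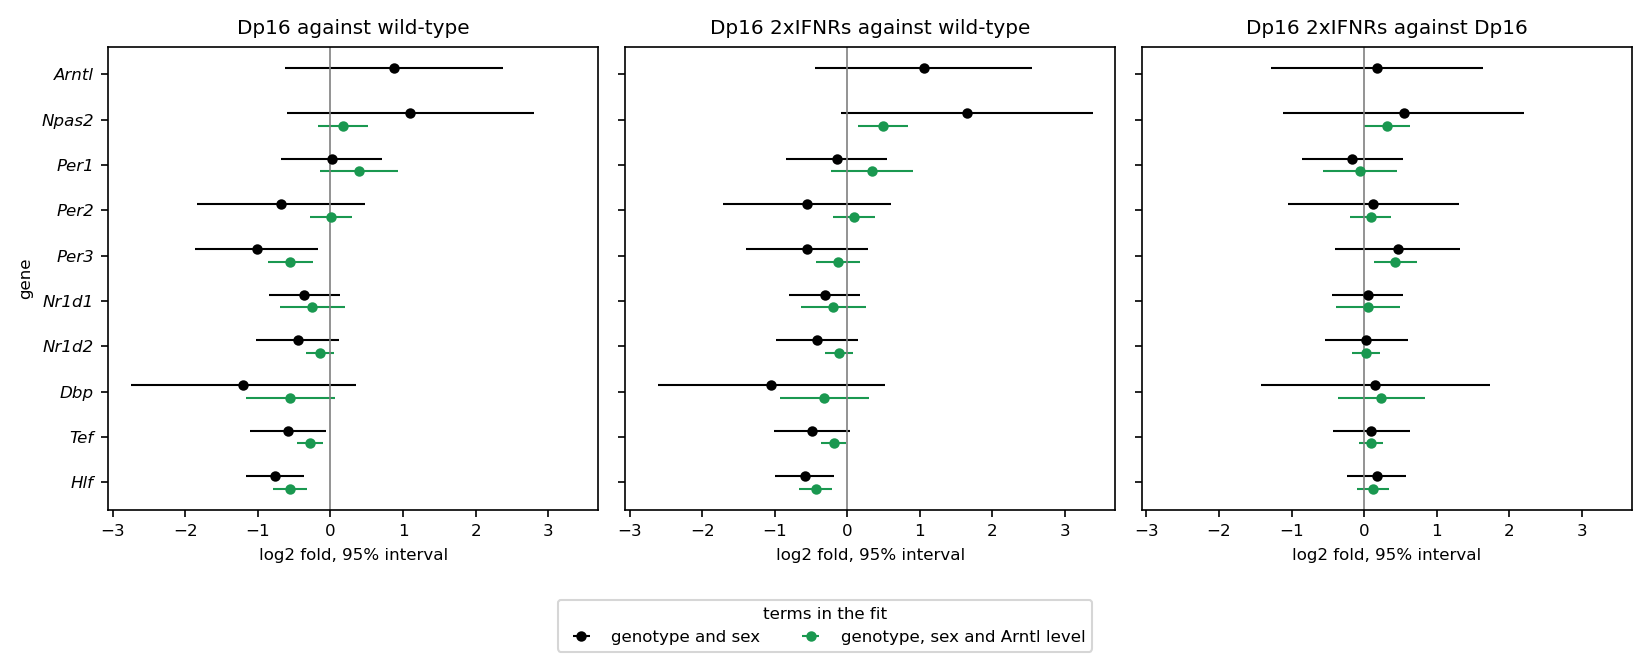
Log2 folds of the 10 genes with 95% intervals in the 3 comparisons, in black from the fit with genotype and sex and in green with the level of Arntl added. With Arntl added the intervals narrow. In Dp16 against wild-type those of Hlf, Per3 and Tef lie below 0 in both fits, around -0.56, -0.56 and -0.28 with Arntl added. With Arntl added, those of Hlf and Tef lie below 0 and that of Npas2 above 0 in Dp16 2xIFNRs against wild-type. That of Per3 lies above 0 in Dp16 2xIFNRs against Dp16.

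Between the sexes, over all genotypes, 3 of the 10 genes passed the edgeR test, where 38.8% of all genes were called. Per1 averaged 32.1 CPM in males and 57.3 CPM in females (log2 fold of male over female -0.84 ± 0.27, edgeR adjusted p = 0.0196). Nr1d1 averaged 89.4 CPM in males and 128.8 CPM in females (-0.51 ± 0.19, edgeR adjusted p = 0.0412), and Hlf 93.8 CPM in males and 123.6 CPM in females (-0.43 ± 0.16, edgeR adjusted p = 0.0391). Npas2, at 15.4 CPM in males and 5.61 CPM in females, missed the threshold (1.70 ± 0.68, edgeR adjusted p = 0.0538), as did Arntl at 1.13 ± 0.58 and Dbp at -1.05 ± 0.62. The call of Per1 held with each of the 18 kidneys left out. That of Nr1d1 held in 6 of 18, without wild-type sample 4, Dp16 sample 4 or 5 or Dp16 2xIFNRs sample 2, 3 or 4 (adjusted p up to 0.103 in the rest). That of Hlf held in 8 of 18, without wild-type sample 1, 2, 4 or 6, Dp16 sample 2, 4 or 5 or Dp16 2xIFNRs sample 2 (adjusted p up to 0.0841 in the rest). Leaving out Dp16 2xIFNRs sample 2, the female with the most Arntl, brought Arntl to 1.80 and Npas2 to 2.57 (edgeR adjusted p = 0.0201 and 0.00347), and leaving out Dp16 sample 5 brought Dbp to -1.69 (edgeR adjusted p = 0.0271). Npas2 also passed without wild-type sample 1 or Dp16 sample 4 or 5 (edgeR adjusted p = 0.0326, 0.0409 and 0.0288). By DESeq2 on all 18 kidneys Npas2 was called (DESeq2 adjusted p = 0.0377), while Nr1d1 and Hlf were not (DESeq2 adjusted p = 0.0660 and 0.0705). With the level of Arntl as a term 3 of the 9 other genes were called, where 36.5% of all genes were. Per1 was still called (-0.58 ± 0.21, edgeR adjusted p = 0.0357), Npas2 and Tef were now called higher in males (0.51 ± 0.14 and 0.31 ± 0.07, edgeR adjusted p = 0.00681 and 0.00181), and Hlf and Nr1d1 were not called. The difference between genotypes did not differ detectably between males and females for any of the 10 genes by edgeR. At an adjusted p under 0.05, 0.0171% of all genes passed for Dp16 and 0.00569% for Dp16 2xIFNRs. Of the 10, 0 had an unadjusted p under 0.05, a threshold at which the share of all genes is not given here.

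Of the 12 other core clock genes, 0 passed the edgeR test in any of the 3 comparisons. Of all genes, 4.23% were called in Dp16 against wild-type, 4.79% in Dp16 2xIFNRs against wild-type and 0.0171% in Dp16 2xIFNRs against Dp16. In the same order 0, 1 and 1 of the 12 had an unadjusted p under 0.05, as had 17.1%, 18.2% and 4.71% of all genes. Clock, the partner of ARNTL, had log2 folds of 0.00 ± 0.11 in Dp16 and 0.14 ± 0.11 in Dp16 2xIFNRs against wild-type. Cry1 and Cry2, which join PER in repression, had -0.15 ± 0.36 and -0.36 ± 0.20 in Dp16 against wild-type. Nfil3, a repressor that competes with the PAR bZIP factors for D-boxes, had 0.37 ± 0.36 in Dp16 and 0.52 ± 0.36 in Dp16 2xIFNRs against wild-type. Across animals, centred as above, 5 of the 12 were tied to Arntl after adjustment over the 12, 2 in the same and 3 in the opposite direction, a test added after the data were seen. Nfil3 had r = 0.80 and rho = 0.76 and Clock r = 0.73 and rho = 0.74 (permutation adjusted p of r 0.0302 and 0.0247). Ciart, a repressor of the ARNTL pair, had r = -0.92 and rho = -0.93 (permutation adjusted p of r 0.00167). Bhlhe41 and Bhlhe40, repressors that compete for E-boxes, had r = -0.85 and -0.66 and rho = -0.86 and -0.71 (permutation adjusted p of r 0.000514 and 0.0316). Cry1 had r = 0.05 and Cry2 r = -0.57 (permutation adjusted p = 0.946 and 0.0748). Without the 2 farthest animals r was 0.62 for Clock, 0.75 for Nfil3, -0.90 for Ciart, -0.85 for Bhlhe41 and -0.68 for Bhlhe40.

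Of the 11 kinases, ubiquitin ligases and cofactors that act on clock proteins, 1 passed in each genotype against wild-type. Of all genes, 4.23% were called in Dp16 and 4.79% in Dp16 2xIFNRs. At an unadjusted p under 0.05 there were 2 of the 11 in Dp16 and 3 in Dp16 2xIFNRs, beside 17.1% and 18.2% of all genes. In Dp16 2xIFNRs against Dp16 there were 0, beside 4.71% of all genes. The gene called was Dyrk1a, a kinase of CRY2 that lies on the duplicated segment. It averaged 65.1 CPM in Dp16 and 46.4 CPM in wild-type kidneys (log2 fold 0.49 ± 0.07, edgeR adjusted p = 0.00076). In Dp16 2xIFNRs kidneys it averaged 67.2 CPM (0.53 ± 0.07 against wild-type, edgeR adjusted p = 0.000385). Of the 13 output genes of the clock and the PAR bZIP factors, 1 was higher and 1 was lower in Dp16 against wild-type. Of all genes, 3.17% were called higher and 1.06% lower there. By edgeR 0 of the 13 were called in the other comparisons, beside 4.79% and 0.0171% of all genes. At an unadjusted p under 0.05 there were 6 of the 13 in Dp16 against wild-type, 6 in Dp16 2xIFNRs against wild-type and 2 in Dp16 2xIFNRs against Dp16. The shares of all genes were 17.1%, 18.2% and 4.71%. The gene called higher was Cdkn1a, the cell cycle inhibitor p21 that NR1D1 represses in mouse liver, at 24.3 CPM in Dp16 and 11.6 CPM in wild-type kidneys (log2 fold 1.05 ± 0.20, edgeR adjusted p = 0.00399). The gene called lower was Pdxk, the pyridoxal kinase whose gene the PAR bZIP factors control in mice, at 187.2 CPM in Dp16 and 232.9 CPM in wild-type kidneys (-0.31 ± 0.08, edgeR adjusted p = 0.0346). Pdxk had -0.27 ± 0.08 in Dp16 2xIFNRs against wild-type (edgeR adjusted p = 0.0607).

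Systemic cues that can set peripheral clocks were read from 3 further lists. For comparison, 4.23% of all genes were called in Dp16 against wild-type, 4.79% in Dp16 2xIFNRs against wild-type and 0.0171% in Dp16 2xIFNRs against Dp16. In the same order 17.1%, 18.2% and 4.71% of all genes had an unadjusted p under 0.05. Of 11 glucocorticoid response genes 0 were called in any comparison by edgeR, with 1 in each at an unadjusted p under 0.05. Of 9 temperature-responsive genes 1 was called, the heat shock chaperone Hsp90aa1, at 446.4 CPM in Dp16 2xIFNRs and 310.2 CPM in wild-type kidneys (log2 fold 0.48 ± 0.07, edgeR adjusted p = 0.000513), and it had 0.24 ± 0.07 in Dp16 against wild-type (edgeR adjusted p = 0.0609). At an unadjusted p under 0.05 there were 4 of the 9 in Dp16 2xIFNRs against wild-type and 1 in each of the other comparisons. Of 10 immediate early genes 1 was called, the zinc finger factor Egr2, at 1.16 CPM in Dp16 2xIFNRs and 0.38 CPM in wild-type kidneys (log2 fold 1.63 ± 0.45, edgeR adjusted p = 0.0429), and 2, 2 and 1 of the 10 had an unadjusted p under 0.05 in Dp16 against wild-type, Dp16 2xIFNRs against wild-type and Dp16 2xIFNRs against Dp16.

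Among all genes tested other than the 10 described here, the pattern most like that of Arntl across the 18 kidneys, centred by genotype and sex, was that of Fam20a with r = 0.98, beside 0.99 for Npas2. Ctdspl, Dtx4, Nr2f6 and Clpx followed with r = 0.96, 0.96, 0.96 and 0.95. Outside the 10 genes, the patterns most like that of Dbp were those of Ciart with r = 0.97, Coq10b and Hes6 with 0.96, Atp1b1, the beta subunit of the sodium pump, with 0.95, and Angptl4, an inhibitor of lipoprotein lipase, with 0.92. Within the 10, Nr1d2 and Per3 had r = 0.98 with Dbp and Tef had 0.97. These genes were picked for their r, so the values are a description with no test.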

How the data were processed

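PolyA RNA of whole kidney from 18 mice was sequenced in 3 groups of 6, grouped by the genotype in the labels. Per the labels' protocols, TRIzol served for extraction, a Tecan/Nugen kit for stranded libraries and a NovaSeq sequencer for paired reads. HTSeq 0.6.1, SAMtools 1.5, HISAT2 2.1.0, FastQC 0.11.5, bcl2fastq and build GRCm38 are named per the submitters' processing notes, and the strand setting of counting is not given in the sources used here. Raw counts of 55385 genes were deposited with no normalization. RPKM values of these genes, deposited by the authors in a second table, were used for levels between genes.

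The 10 members and the other gene lists were chosen with earlier results of these data known. Genes were tested with edgeR 4.0.16 in R 4.3.3 by the quasi-likelihood test, two-sided, in 1 fit of all 18 libraries with genotype and sex as terms and TMM scaling. The low-count filter (minimum count 10, minimum total 15) left 17575 genes and removed 37810. P-values were adjusted by Benjamini-Hochberg over all 17575, with a threshold of 0.05. The common biological coefficient of variation was 16.8%. Log2 CPM used a prior count of 2. An SE of a log2 fold is approximate, being the fold divided by the square root of F. Correlations were tested by permuting animals within genotype and sex. Alternatives were RLE size factors, no filter, a cutoff of 1 on the mean log2 CPM, no sex term, age or the first label number as a term, a block on sample number, 2 groups alone, DESeq2 1.42.0, limma 3.58.1 voom with the last label number as a random block, limma-trend on log2(RPKM + 0.1), and each library left out. The Arntl term, the correlations of the 12 other clock genes and those with the middle label number were added after the data were seen. The genes named are the 10 members, the called genes of the lists with Clock, Cry1, Cry2, Nfil3 and Dyrk1a, and the 5 genes most like Arntl and the 5 most like Dbp outside the members. Some genes that this rule takes are left out of the text. Bhlhe40, Bhlhe41 and Ciart were named after their values were seen. The steps were tested on simulated counts.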

Additional observations from a re-analysis of the deposited data

Results flagged for a closer look

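A test for 1 kidney far from the other 5 of its group was run on the CPM of the 10 genes in the 3 genotypes, 30 groups in all. Chance flags about 1 in 20 groups where values are normally spread. CPM that differ many fold between animals need not be so, and the test was not run on log2 CPM. The flags may therefore hang on the scale. It picked out 4 values in 3 kidneys. Male wild-type sample 3 stood above the other wild-type kidneys for Arntl, with 24.2 CPM against at most 6.31 CPM, and for Npas2, with 24.2 CPM against at most 5.69 CPM. Both genes had 1315 counts in it. Male Dp16 sample 5 stood above the other Dp16 kidneys for Tef, with 264.1 CPM against at most 166.2 CPM. Female Dp16 2xIFNRs sample 4 stood above the other Dp16 2xIFNRs kidneys for Hlf, with 196.3 CPM against at most 115.2 CPM. Each of these kidneys lay at an end of the order of Arntl levels within its genotype, at 24.2, 1.85 and 1.15 CPM.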

How the results depend on the processing

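Of the 3 comparisons of genotypes, Dp16 2xIFNRs against Dp16 called 0 of the 10 genes under all 30 alternatives. In Dp16 against wild-type the count of 1 became 2 with no filter on low counts and with Arntl as a term, and 0 without the sex term, and ranged from 0 to 3 with each animal left out. Hlf in that comparison had log2 folds of -0.90 to -0.56 over 30 alternatives and was called in 22 (adjusted p from 0.000804 to 0.142 in edgeR, limma and DESeq2). In Dp16 2xIFNRs against wild-type the count of 0 became 1, always Hlf, with no filter, with the sample number as a block, with the last label number as a random block and with Arntl as a term, and ranged from 0 to 1 with each animal left out. For the sexes the count of 3 became 5 with no filter and 0 with the sample number as a block, and ranged from 1 to 5 with each animal left out. Between the sexes Tef went from no detected difference, -0.02 ± 0.20 (edgeR adjusted p = 0.949), to 0.31 ± 0.07 (edgeR adjusted p = 0.00181) with Arntl as a term. Of the 45 correlations 36 passed, and 33 to 43 with each animal left out. For these changes the cause was not tested. The labels do not state that animals of the same sample number belong together. Of 18 pairs of the same number 7 had a correlation of deviations over 0.1 (range -0.17 to 0.20). Pairs of different numbers were not compared, so these values cannot tell whether the numbers pair the animals. With the replicate block Hlf in Dp16 against wild-type was -0.75 (edgeR adjusted p = 0.0152) and in Dp16 2xIFNRs against wild-type -0.64 (edgeR adjusted p = 0.0336). With 6 animals per genotype and biological coefficients of variation of 81.5% for Arntl and 82.7% for Dbp, the spread between animals and not the depth limits both genes, whose lowest libraries hold 54 and 531 counts.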

Other observations

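Outside the 10 genes described above, those whose pattern across the 18 kidneys ran most opposite to that of Arntl, centred by genotype and sex, were picked after their values were seen and carry no test. Wee1, the cell cycle kinase whose gene the clock drives through E-boxes in mouse liver, had r = -0.96, as did Ak4, a mitochondrial adenylate kinase. Angptl4 and Coq10b had r = -0.95 and Igfbp4, a binding protein of insulin-like growth factors, -0.94. Most opposite to Dbp outside the 10 ran Ypel2 with r = -0.96, Ier5 with -0.96, and Ddhd1, Rtl6 and Fam20a with -0.94.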
